A study of Mus musculus with 2 samples.

Results

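G protein-coupled receptors that sense acid, lipids or oxysterols were followed through 2 single-cell libraries of sorted mouse microglia: Gpr65 (ENSMUSG00000021886), Gpr132 (ENSMUSG00000021298), Gpr84 (ENSMUSG00000063234) and Gpr183 (ENSMUSG00000051212). The receptors were found by symbol, 4 rows of 32589 features, and were chosen by the difference of their CPM between the libraries in microglia, which was already known. That difference is therefore a description of the 4 genes. Within a library, their pattern over cell classes, over clusters and within single cells was not part of the choice.

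Cells came from the prefrontal cortex of C57BL/6 mice of a vehicle group and of a group that received corticosterone, the main glucocorticoid of rodents, by gavage as a model of depression. They were gated on low CD45 and on CD11b, the surface pattern of microglia. One library was made per group, so no difference below has a replicate check, no p-value is given, and 95% intervals cover counting error only. Treatment, library and any batch of preparation cannot be told apart. Animal number, age, sex, dose and duration were not given in the sources used here.

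These receptors are part of how macrophages and microglia read their surroundings. Gpr65 (TDAG8) is activated by extracellular protons and raises cyclic AMP through the stimulatory G protein. Gpr132 is its relative and answers to lysophospholipids and oxidised fatty acids, with a weaker response to acid. Gpr84 is a receptor for medium-chain fatty acids that couples to inhibitory G proteins and is known to be induced in microglia and macrophages by inflammatory stimuli. Gpr183 (EBI2) binds a dihydroxylated cholesterol derivative that is made by the enzymes Ch25h and Cyp7b1 and broken down by Hsd3b7, and it steers the movement of immune cells.

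The genes lie apart on GRCm38, the build named in the submitters' processing notes, in the GENCODE M21 annotation. Gpr65 spans chr12:98268635-98276644 on the plus strand with 2 exons, of which 1 is coding, and 337 codons. Gpr132 spans chr12:112850873-112868228 on the minus strand, 14.6 Mb from Gpr65, and has 3 exons in its main coding transcript, 2 of them coding, and 382 codons. Gpr84 spans chr15:103308235-103310612 on the minus strand, with 2 exons, 1 coding exon and 396 codons. Gpr183 spans chr14:121952551-121965195 on the minus strand, with 2 exons, 1 coding exon and 357 codons. All but Gpr132 overlap another gene on the opposite strand, and whether the counting used strand was not given in the sources used here. Gpr183 lies inside Ubac2, Gpr65 overlaps the antisense gene Gm47566, and Gpr84 overlaps the antisense gene Gm49482.

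Upstream sequence is shown for the receptors with the largest, the next and the smallest library difference among those above the count minimum, so that their letters can be compared (RefSeq, GRCm38.p6; bases before the annotated start in both RefSeq and GENCODE). Capitals mark GGAAGT on either strand, the core of ETS factor sites, a motif added after the sequences were seen, and only the Gpr183 stretch holds it.
Gpr65, chr12:98268385-98268634, plus strand, 250 bases: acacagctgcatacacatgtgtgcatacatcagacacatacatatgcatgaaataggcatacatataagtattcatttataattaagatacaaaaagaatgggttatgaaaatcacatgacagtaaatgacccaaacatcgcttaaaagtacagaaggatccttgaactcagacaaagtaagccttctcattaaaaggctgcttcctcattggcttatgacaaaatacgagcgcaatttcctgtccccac
Gpr84, chr15:103310613-103310688, minus strand, 76 bases: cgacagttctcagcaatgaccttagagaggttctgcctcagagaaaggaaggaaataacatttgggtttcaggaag
Gpr183, chr14:121965196-121965443, minus strand, 248 bases: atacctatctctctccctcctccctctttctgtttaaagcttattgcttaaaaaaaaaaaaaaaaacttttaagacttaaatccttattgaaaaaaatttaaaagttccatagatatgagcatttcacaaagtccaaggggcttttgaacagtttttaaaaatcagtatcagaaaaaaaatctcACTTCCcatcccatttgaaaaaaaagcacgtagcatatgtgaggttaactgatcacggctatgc

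The RefSeq promoter table, 250 bases before to 50 after a start, held 1 entry for each of the 4 receptors. None of these entries held the other motifs searched on both strands: the core of interferon-stimulated response elements (in 3.44% of all 32851 promoters), ACANNNTGT (glucocorticoid response element core, 6.85%), the NF-kB motif (0.411%), GAGGAAGT (PU.1, 3.20%) or TGACGTCA (cyclic AMP response element, 1.79%). GGAAGT occurred in the entries of Gpr132, Gpr84 and Gpr183 and in 23.8% of all promoters, and it is contained in the GAGGAAGT motif. Its first base lay at -66 from the RefSeq start of Gpr183 and at -62 from that of Gpr84, past the end of the stretch printed. GC content of the 250 bases was 36.8% for Gpr65, 55.6% for Gpr132, 46.0% for Gpr84 and 32.0% for Gpr183, against a median of 52.4% over all promoters. The 250 bases of Gpr132, chr12:112860917-112861166, lay inside its GENCODE gene, so sequence before the GENCODE start was not searched. For Gpr84 only 76 of the 250 bases lay before the GENCODE start.

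After filtering, the libraries held 10500 vehicle and 17883 corticosterone cells with medians of 3220.5 and 3961 UMIs, the molecular tags that count captured transcripts. Microglia-like cells numbered 7890 in vehicle and 15265 in corticosterone, and all 10 microglia markers were detected in them. Different clusters held most of this class in each library: cluster 1 held 7262 of the vehicle cells, and clusters 0 and 2 held 9794 and 4614 of the corticosterone cells. The libraries shared 104 barcodes. Barcodes of every other class also carried microglia transcripts, and this touches each class value below.

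In microglia-like cells Gpr65 and Gpr84 were several-fold higher in corticosterone and Gpr183 was modestly higher, while Gpr132 was close to the limit of detection. Levels are CPM, UMIs per 1e6 UMIs of the summed cells, and are compared between libraries and not between genes. Gpr65 had 168 UMIs in the vehicle cells, 5.21 CPM (4.46 to 6.06), and 2569 UMIs in the corticosterone cells, 35.9 CPM (34.6 to 37.4). The corticosterone level was 6.89 times the vehicle level (5.89 to 8.11), a log2 ratio of 2.78 (2.56 to 3.02), and without the largest cluster of each library the log2 ratio was 1.47. Gpr84 stood at 179 CPM (175 to 184) and 697 CPM (691 to 703), a log2 ratio of 1.96 (1.92 to 2.00), or 1.31 without those clusters. Their intervals did not overlap between libraries.

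Gpr183, the oxysterol receptor, had 7067 UMIs or 219 CPM (214 to 224) in the vehicle library. The other library had 21088 UMIs or 295 CPM (291 to 299), and the log2 ratio was 0.43 (0.39 to 0.47). Gpr132 had 20 UMIs in vehicle and 93 in corticosterone, 0.621 CPM (0.379 to 0.959) and 1.30 CPM (1.05 to 1.59). Its log2 ratio was 1.07 (0.36 to 1.84), and the sign turned, to -1.40, without the largest cluster of each library. With a mean of 0.961 CPM it was the only receptor of the 4 under the minimum of 5 CPM set for counts over genes. Of the 3 above that minimum, Gpr65 and Gpr84 were at least 2-fold higher, as were 2.24% of all 9674 genes. Gpr65 ranked 25th, Gpr84 55th and Gpr183 981st from the highest log2 ratio, ranks that follow from how the receptors were picked. The median over all genes was -0.01, with a 5th percentile of -0.67 and a 95th percentile of 0.64.

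Overlapping genes had their own counts. Gm49482, antisense to Gpr84, had 28 and 271 UMIs (0.869 and 3.79 CPM), with a log2 ratio of 2.13 (1.56 to 2.74). Ubac2, which encloses Gpr183, was at 69.2 and 86.0 CPM, a log2 ratio of 0.31 (0.24 to 0.39). Gm47566, antisense to Gpr65, had 0 and 4 UMIs. Reads from each pair cannot be told apart without strand.

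Across the other classes, the 4 receptors fell into separate patterns. Relative to the microglia markers, Gpr84 lay at or below their level in the classes and Gpr183 at or above it in most pools. Gpr65 lay above it in macrophage-like cells, neutrophil-like cells and cluster 8. In corticosterone, Gpr65 did so in monocyte-like cells and erythroid cell-like barcodes as well. Gpr132 lay above it in monocyte-like cells and cluster 8, and, from 5 UMIs, in vehicle neutrophil-like cells. The plot of CPM by class shows each level with its interval.

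**Figure D1:**
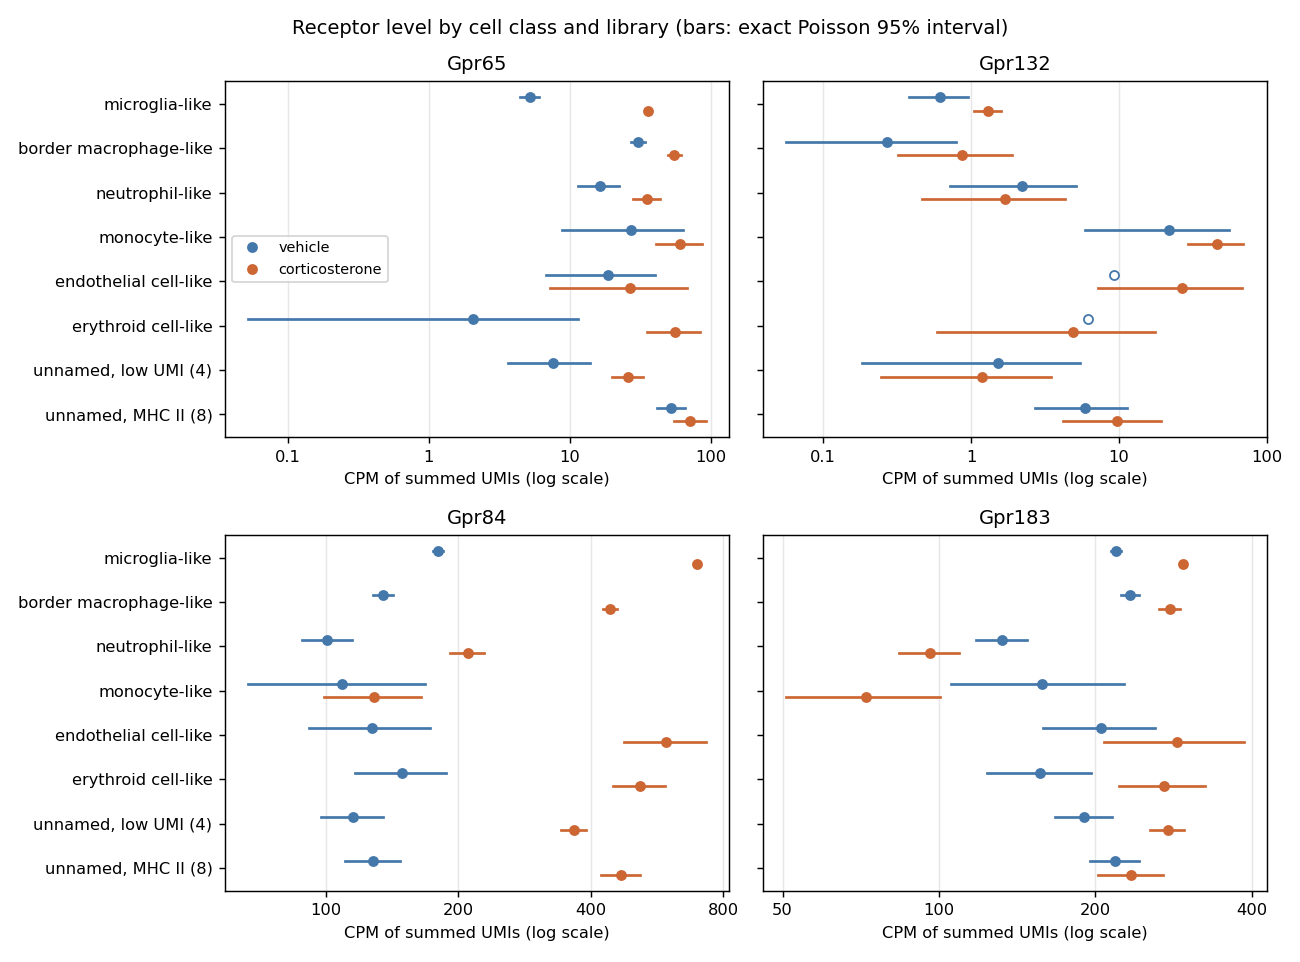
CPM of each receptor (log axis) in 8 cell classes of the vehicle (blue) and corticosterone (orange) library. Points are summed UMIs, bars are exact Poisson 95% intervals, and open circles stand at the level of 3 UMIs where none was counted. In vehicle, Gpr65 lies at 5.21 CPM in microglia-like and 30.6 CPM in border macrophage-like cells. The endothelial class has under 50 cells in both libraries and the monocyte class has 31 in vehicle.

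Among pools of at least 50 cells, Gpr65 in vehicle was lowest in erythroid cell-like barcodes (2.06 CPM, 0.0522 to 11.5, 1 UMI) and microglia-like cells, whose intervals overlapped. The low-UMI cluster 4, left unnamed, followed at 7.57 CPM (3.63 to 13.9), with an interval that overlapped its neighbours on both sides, then neutrophil-like cells at 16.4 CPM (11.5 to 22.5). Cells like border-associated macrophages, those of meninges and vessel walls, stood at 30.6 CPM (27.42 to 34.05), which is 5.87 times the microglia-like level. The highest level was in unnamed cluster 8, led by class II histocompatibility genes, at 52.7 CPM (41.8 to 65.6). The last 3 intervals did not overlap.

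In corticosterone the order of Gpr65 was compressed. The microglia-like level, by whose library difference Gpr65 was chosen, is part of that order, so the compression is no separate result. The low-UMI cluster had 25.9 CPM (20.0 to 33.0), and neutrophil-like cells had 35.3 CPM (28.1 to 43.7), with an interval that included the microglia-like level of 35.9 CPM. Border-associated macrophage-like cells had 55.3 CPM (49.9 to 61.2), 1.54 times the microglia-like level. Erythroid cell-like barcodes (56.1 CPM, 35.5 to 84.1), monocyte-like cells (60.4 CPM, 40.8 to 86.2) and cluster 8 (71.7 CPM, 54.5 to 92.4) overlapped one another and the macrophage-like interval.

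The library difference of Gpr65 by class was a log2 ratio of 0.85 (0.64 to 1.07) in border-associated macrophage-like cells and 1.11 (0.53 to 1.71) in neutrophil-like cells. In cluster 8 it was 0.44 (-0.07 to 0.95), an interval that included 0, and in the low-UMI cluster 1.77 (0.80 to 2.90). Erythroid cell-like barcodes, with 1 vehicle UMI, had 4.76 (2.14 to 10.13). The microglia-like interval of 2.56 to 3.02 lay above those of the macrophage-like, neutrophil-like and cluster 8 cells. Gpr65 was chosen by its difference in microglia-like cells, so that order is no separate result. Whether the ratios differ between classes was not tested. Over all cells together the log2 ratio of Gpr65 was 1.53 (1.41 to 1.66). The macrophage-like class gave 337 of 644 Gpr65 UMIs in vehicle, from 1057 of 10500 cells, and 380 of 3213 in corticosterone, from 799 of 17883 cells.

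Summed markers of border-associated macrophages within microglia-like cells were at 82.8 and 39.2 CPM in the vehicle and corticosterone libraries, with 0 of the 8 markers absent from both libraries. Those of neutrophils were at 462 and 148 CPM, and those of monocytes at 14.3 and 39.8 CPM. The part of these cells in the Gpr65 level of the microglia-like class was not tested.

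Microglia transcripts in the other barcodes were read from 4 markers, Sall1, P2ry12, Tmem119 and Siglech, as the median ratio to their microglia-like CPM. That ratio was 0.823 in vehicle and 0.653 in corticosterone macrophage-like cells, 0.553 and 0.357 in neutrophil-like cells, and 0.787 and 0.849 in erythroid cell-like barcodes. The product of this ratio and the microglia-like level gives a level for each receptor to set beside the measured one.

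**Figure D2:**
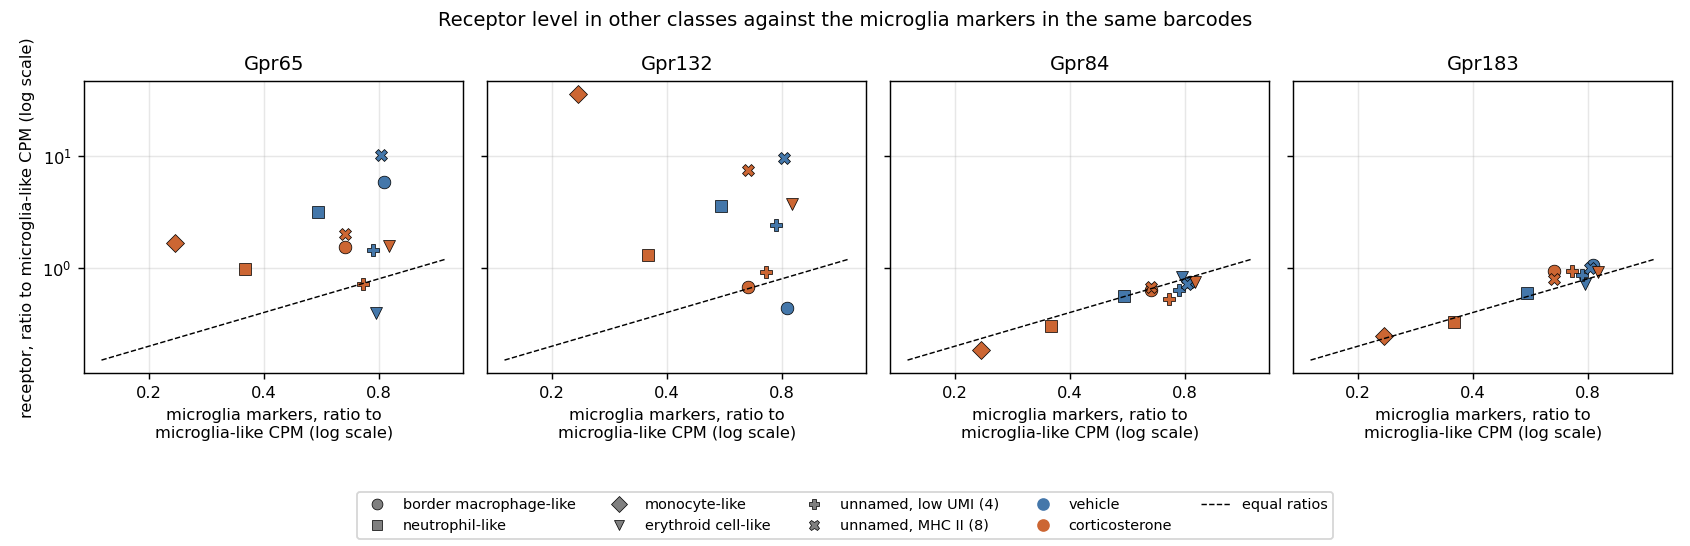
Receptor level in each other class with at least 50 cells, as a ratio to the microglia-like CPM of the same library (vertical, log axis), against the median ratio of 4 microglia markers (horizontal, log axis). Color gives the library, shape the class, and the dashed line equal ratios. Gpr84 lies along or below the line, from 0.185 to 0.828, and Gpr183 mostly along or above it, while Gpr65 reaches 10.1 and Gpr132 35.6.

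Gpr84 lay at or below that product in the 11 pools of at least 50 cells outside the microglia-like class, allowing for counting intervals. In macrophage-like cells it was at 135 and 443 CPM in the 2 libraries, against products of 148 and 455 CPM. In neutrophil-like cells it was at 101 and 210 CPM, against 99.2 and 249 CPM. Its log2 ratio was 1.71 (1.62 to 1.80) in macrophage-like, 1.06 (0.83 to 1.29) in neutrophil-like and 1.80 (1.41 to 2.21) in erythroid cell-like barcodes, beside 1.96 in microglia-like cells. These barcodes carried transcripts of microglia, in which Gpr84 was chosen by its library difference. The shared direction is therefore no separate result about the classes. At least 2-fold higher were 2.9% of 9749 genes in macrophage-like, 2.53% of 9570 in neutrophil-like and 10.7% of 9310 in erythroid cell-like barcodes, and 1.86%, 7.88% and 9.61% were at least 2-fold lower.

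Gpr65 exceeded the product in macrophage-like cells, by 26.3 CPM (23.1 to 29.8) for vehicle and 31.9 CPM (26.5 to 37.7) for corticosterone. These remainders, with intervals for the counts of the class alone, overlapped between the libraries, although the measured levels did not. In neutrophil-like cells the remainders were 13.5 CPM (8.63 to 19.7) and 22.4 CPM (15.3 to 30.9), and in cluster 8 they were 48.5 CPM (37.6 to 61.4) and 48.3 CPM (31.1 to 69.0). Monocyte-like cells of the corticosterone library had a remainder of 52.0 CPM (32.3 to 77.8). Erythroid cell-like barcodes of the corticosterone library also had a remainder above 0, of 25.5 CPM (5.02 to 53.6), though erythroid cells should lack the receptor. Whether the product reflects microglial RNA in these barcodes was not tested.

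Gpr183 exceeded the product, with intervals above 0, in macrophage-like cells and cluster 8 of both libraries and in the low-UMI cluster of corticosterone. In macrophage-like cells it did so by 52.6 CPM (43.7 to 61.8) for vehicle and 85.4 CPM (73.1 to 98.2) for corticosterone. Its levels there were 233 CPM (224 to 242) and 278 CPM (266 to 291), a log2 ratio of 0.25 (0.17 to 0.34). Neutrophil-like cells had the opposite sign, with 132 CPM (118 to 148) in the vehicle and 96.0 CPM (83.9 to 109) in the corticosterone library and a log2 ratio of -0.46 (-0.72 to -0.21). Within the neutrophil-like class the ratio was -0.14 (-0.44 to 0.16) in cluster 6, led by mature granulocyte genes such as Cxcr2, and -1.39 (-1.95 to -0.86) in cluster 7, led by granule genes such as Camp and Ltf. The microglia marker ratio in cluster 7 was 0.368 in vehicle and 0.149 in corticosterone, and that of Gpr183 was 0.453 and 0.128. Cluster 6 held 199 vehicle and 273 corticosterone cells, and cluster 7 held 252 and 124. For the neutrophil-like class, the interval of the Gpr183 remainder included 0 in both libraries.

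Gpr132 was most abundant in monocyte-like cells, the class marked by Ly6c2, Plac8 and Fn1. It had 4 UMIs in 31 vehicle cells, 21.8 CPM (5.93 to 55.7), and 23 UMIs in 59 corticosterone cells, 46.3 CPM (29.4 to 69.5), intervals that overlapped. The corticosterone level was 35.6 times that of microglia-like cells. Among pools of at least 50 cells, cluster 8 came next, with 9 vehicle UMIs, 5.93 CPM (2.71 to 11.3), and 8 corticosterone UMIs, 9.72 CPM (4.19 to 19.1). Macrophage-like cells had 3 and 6 UMIs, and neutrophil-like cells 5 and 4. The neutrophil-like remainder of Gpr132 was 1.87 CPM (0.374 to 4.81) for vehicle and 1.24 CPM (-0.00102 to 3.89) for corticosterone.

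Within microglia-like cells, the library difference of Gpr65 and Gpr84 was also seen inside clusters. The clusters, and the sub-clusters below, divide the cells in which these receptors were chosen by that difference. The shared direction is therefore no separate result. In cluster 1, which held 7262 vehicle and 218 corticosterone cells, the log2 ratio was 2.67 (1.98 to 3.30) for Gpr65, 1.49 (1.34 to 1.64) for Gpr84 and 0.39 (0.20 to 0.58) for Gpr183. In cluster 0, with 197 vehicle and 9794 corticosterone cells, the ratios were 0.86 (0.08 to 1.77), 1.36 (1.15 to 1.57) and 0.70 (0.45 to 0.97). The vehicle value of Gpr65 in that cluster rests on 13 UMIs. Gpr132 was lower there in corticosterone, with a log2 ratio of -2.07 (-3.49 to -0.16), from 4 vehicle UMIs and 73 corticosterone UMIs.

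**Figure D3:**
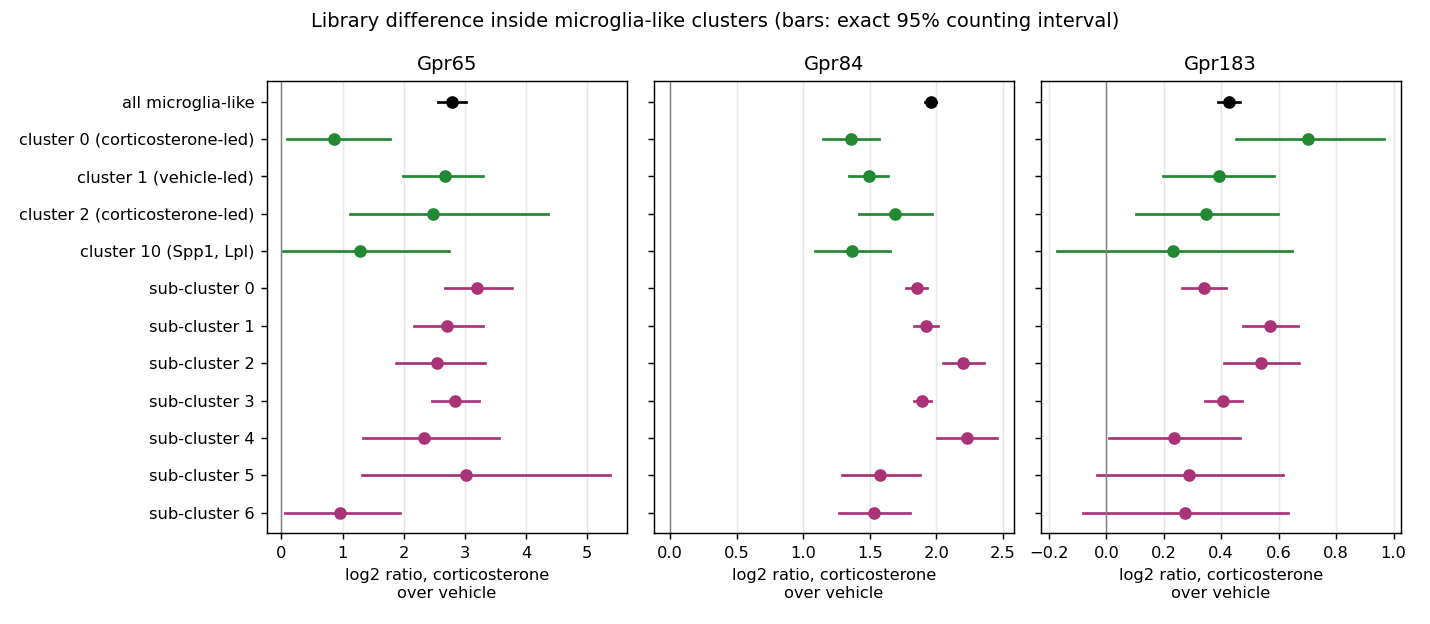
Log2 ratio of corticosterone over vehicle for Gpr65, Gpr84 and Gpr183 in all microglia-like cells (black), in 4 clusters of the joint clustering (green) and in 7 sub-clusters found with genes centred within each library (purple). Bars are exact 95% counting intervals. All 12 values lie above 0 for each receptor, and the intervals of Gpr65 and Gpr84 exclude 0 in each. Clusters and sub-clusters each divide the cells in which the receptors were chosen, so the shared sign is no separate result.

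Sub-clusters found after each gene had been centred within its library held cells of both libraries, and the 4 receptors were left out of all clustering. Over the 7 sub-clusters with at least 50 cells in each library, Gpr65 log2 ratios ran from 0.95 (0.06 to 1.94) in sub-cluster 6, led by Spp1 and Lpl, to 3.20 (2.67 to 3.77) in sub-cluster 0, led by Klf4 and Klf2. Those of Gpr84 ran from 1.53 to 2.23 and those of Gpr183 from 0.23 to 0.57. Sub-cluster 6 had the highest Gpr65 level in both libraries, 36.4 CPM (19.9 to 61.0) from 76 vehicle cells and 70.4 CPM (51.1 to 94.5) from 79 corticosterone cells. Its Gpr84 level was the highest of the 7 as well, 377 CPM (318 to 443) and 1090 CPM (1009 to 1175).

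Gpr84 was higher in sub-cluster 1 than in sub-cluster 0 in both libraries. Sub-cluster 1, led by Ccl7, Tnf and Il1b, had 230 CPM (217 to 244) for vehicle and 872 CPM (857 to 887) for corticosterone. Sub-cluster 0 had 162 CPM (154 to 171) and 586 CPM (575 to 596). The intervals did not overlap within either library. Gpr183 differed between these sub-clusters in corticosterone, at 344 CPM (335 to 353) and 270 CPM (263 to 278), while the vehicle intervals of 218 to 246 and 204 to 223 CPM overlapped. Sub-cluster 4, led by interferon-response genes such as Ifit3 and Rsad2, had Gpr84 at 857 CPM (833 to 882) and Gpr183 at 235 CPM (222 to 248) in corticosterone. Of the 7 sub-clusters this was the lowest Gpr183 level of that library, with an interval that overlapped the next, 267 CPM (231 to 307) in sub-cluster 5. The leading genes of sub-cluster 5 were those of neutrophils, such as Camp, Ngp and S100a8.

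When microglia-like cells of each library were divided by UMIs into 3 equal parts, Gpr65 lay between 4.70 and 5.30 CPM in vehicle and between 34.5 and 39.7 CPM in corticosterone, and Gpr84 between 177 and 186 CPM and between 689 and 710 CPM. Both were higher in corticosterone in the shallow, middle and deep parts. These parts divide the same cells in which the receptors were chosen by their library difference, so this is no separate result. Depth was not matched between libraries. Median UMIs, vehicle first, were 1734.5 and 2791 in the shallow part and 3192 and 4003 in the middle part. In the deep part they were 5567 and 6285. Gpr183 was highest in the shallow cells of both libraries, at 237 and 344 CPM against 214 and 274 CPM in the deep cells.

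Shares of cells with a receptor UMI depend on depth, so cells were first reduced at random to 1000 UMIs. This left 7303 vehicle and 15173 corticosterone microglia-like cells, without 587 and 92 shallower ones. The Gpr65 share was 0.411% (0.277 to 0.586%) for vehicle and 3.50% (3.21 to 3.80%) for corticosterone, and 1.83% and 13.2% with all UMIs. Gpr84 was found in 15.2% (14.4 to 16.1%) and 43.3% (42.5 to 44.1%), or 38.4% and 80.5% without thinning. Gpr183 was found in 19.2% (18.3 to 20.1%) and 24.9% (24.2 to 25.6%), or 46.7% and 63.7%. Gpr132 was found in 4 and 12 cells, 0.0548% (0.0149 to 0.140%) and 0.0791% (0.0409 to 0.138%), or 0.203% and 0.537% without thinning.

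**Figure D4:**
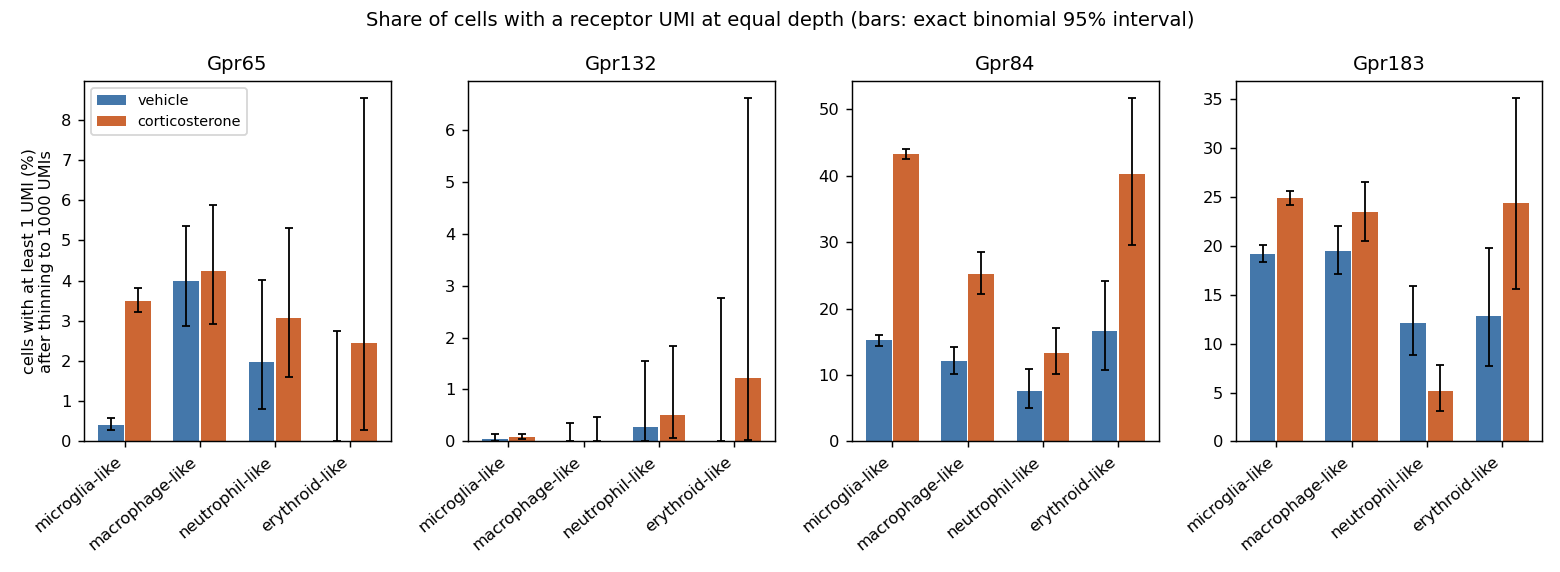
Percent of cells with at least 1 UMI of each receptor after thinning to 1000 UMIs, in 4 classes of the vehicle (blue) and corticosterone (orange) library. Bars start at 0 and error bars are exact binomial 95% intervals. For Gpr84, erythroid-like barcodes reach 40.2% in corticosterone, beside 43.3% of microglia-like cells.

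Erythroid cell-like barcodes were set beside them as a background. Erythroid cells should lack these receptors, but the microglia marker ratio of these barcodes was 0.787 in vehicle and 0.849 in corticosterone. Before thinning they held a median of 2514.5 and 3763 UMIs, and microglia-like cells one of 3192 and 4003. Gpr84 was found there in 16.7% (10.7 to 24.1%) and 40.2% (29.6 to 51.7%) at equal depth, and Gpr183 in 12.9% (7.68 to 19.8%) and 24.4% (15.6 to 35.1%), intervals that overlapped those of microglia-like cells. Gpr65 was found in 0 of 132 vehicle barcodes, which allows a share of barcodes with a UMI of up to 2.27% by 3 counts (2.76% by the exact interval), and in 2 of 82 corticosterone barcodes, 2.44% (0.297 to 8.53%). The microglia marker P2ry12 was detected in 92.4% and 92.7% of these barcodes. The comparison therefore does not separate transcripts of the cells themselves from microglial transcripts in these barcodes.

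At equal depth most cells carried none or 1 of the 4 receptors. Microglia-like cells with no receptor detected made up 68.1% (67.0 to 69.2%) in the vehicle and 41.4% (40.6 to 42.2%) in the corticosterone library, those with 2 receptors 3.00% and 12.2%, and 3 receptors were found in 0 and 78 cells. Gpr84 and Gpr183 occurred together in 208 vehicle cells, 0.973 times (0.845 to 1.11) the product of their single shares, and in 1675 corticosterone cells, 1.02 times (0.976 to 1.07). Gpr65 and Gpr84 occurred together in 7 vehicle cells, 1.53 times the product (0.616 to 3.16), and in 239 corticosterone cells, 1.04 times (0.912 to 1.18). Gpr65 and Gpr183 occurred together in 157 corticosterone cells, 1.19 times (1.01 to 1.39), and in 4 vehicle cells, 0.694 times (0.189 to 1.78). Apart from that pair in corticosterone, each of the other pairs had an interval that included 1 in each library.

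Over 22 pools of library and cluster, which share libraries and depth, levels were compared as log2(CPM + 1) with Pearson's r as a description. The pools also differed in the microglia marker ratio, from 0.149 in cluster 7 to 1.14 in cluster 1 of corticosterone. The part of that ratio in r was not tested. Gpr84 and Gpr183 had r = 0.67 over all pools, 0.75 over the 10 vehicle pools and 0.87 over the 12 corticosterone pools. Gpr65 and Gpr132 had r = 0.50, 0.47 and 0.59, and Gpr132 and Gpr183 had r = -0.31, -0.15 and -0.39. Among 6537 genes, those most like Gpr65 were Apoe (0.86), Rap2b (0.81) and Axl (0.80), and those most like Gpr84 were Ctsz (0.92), Slc11a1 (0.91) and Bcl2a1a (0.91), the last a member of a family of near-identical copies. These values carry the library difference by which the receptors were chosen: Apoe was at 444 and 4527 CPM in microglia-like cells of the vehicle and corticosterone libraries and Axl at 2.95 and 32.3 CPM. Over the pools of each library alone, vehicle first, r with Gpr65 was 0.90 and 0.73 for Apoe, 0.76 and 0.85 for Rap2b and 0.75 and 0.80 for Axl. Gpr183 was most like Tars (0.96), Srfbp1 (0.95) and Pea15a (0.95), and Gpr132 most like Tmsb10, Macroh2a1 and Naaa (0.79, 0.79 and 0.78). For Tmsb10 the value was 0.33 over vehicle pools and 0.91 over corticosterone pools. Gpr132 had at most 15 UMIs per pool, apart from 73 in cluster 0 and 23 in monocyte-like cells of corticosterone. Its highest level over the pools was 46.3 CPM, in those monocyte-like cells. The 31 vehicle monocyte-like cells were too few to form a pool.

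Lists of genes that work around the receptors had medians between -0.20 and 0.29 in microglia-like cells. The log2 ratio of Hcar2 lay above that of Gpr84, and the interval of Alox5 overlapped that of Gpr84. Counts and medians below are over the genes with a mean of at least 5 CPM, against 2.24% of all genes at least 2-fold higher and 2.06% at least 2-fold lower.

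**Figure D5:**
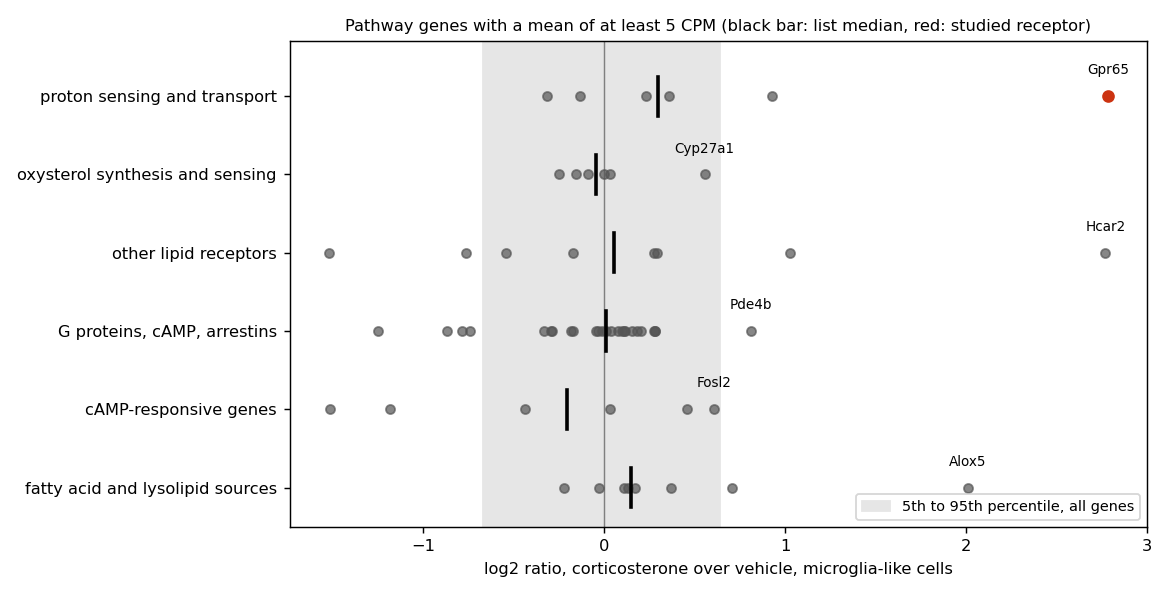
Log2 ratio of corticosterone over vehicle in microglia-like cells for genes of 6 lists (points, studied receptors in red), with the list median (black bar) and the 5th to 95th percentile of all genes (grey); the highest gene of each list is labelled. The lists center near 0, from -0.20 to 0.29, and Gpr65, Hcar2 and Alox5 stand at 2.01 or more.

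Among proton sensors and proton transporters, 6 of 11 genes had that level, the median log2 ratio was 0.29 (0.23 without Gpr65), and Gpr65 alone was past 2-fold. Gpr4, an acid-sensing receptor of the same family, was scarce, with 22 and 31 UMIs and a log2 ratio of -0.65 (-1.49 to 0.20). Slc16a3, which exports lactate with a proton, had 29.6 and 56.2 CPM, a log2 ratio of 0.93 (0.82 to 1.03). Hvcn1, a proton channel, had a ratio of 0.36 (0.31 to 0.40).

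Of 11 oxysterol genes, 6 had that level, with a median of -0.04 and none past 2-fold in either direction. The enzymes that make the ligand of Gpr183 were nearly undetected in microglia-like cells: Ch25h had 32 and 52 UMIs, 0.993 CPM (0.679 to 1.40) and 0.727 CPM (0.543 to 0.954), and Cyp7b1 had 4 and 0 UMIs. Outside that class, Ch25h was among the 10 leading genes of cluster 8. Hsd3b7, which removes the ligand, had 13 and 40 UMIs, a log2 ratio of 0.47 (-0.46 to 1.499). Cyp27a1, the sterol hydroxylase of mitochondria, was the highest of the list at 0.55 (0.47 to 0.64), and Osbpl8, an oxysterol-binding protein, the lowest of those above 20 CPM at -0.16 (-0.25 to -0.07).

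Of 20 other lipid receptors, 8 had that level, with a median of 0.05, 2 at least 2-fold higher and 1 at least 2-fold lower. Hcar2, a receptor for hydroxybutyrate and nicotinic acid, had 181 and 2737 UMIs (5.62 and 38.3 CPM), a log2 ratio of 2.77 (2.55 to 2.99). Gpr35 had a ratio of 1.03 (0.85 to 1.202). S1pr1, a receptor for sphingosine phosphate, had 77.7 and 27.0 CPM, a log2 ratio of -1.52 (-1.61 to -1.44). Gpr34, the microglial receptor for lysophosphatidylserine, was at -0.77 (-0.78 to -0.75).

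The G proteins, cyclic AMP enzymes and arrestins to which such receptors couple had a median of 0.01 over 25 of 25 genes, 0 at least 2-fold higher and 1 lower. The highest was the phosphodiesterase Pde4b at 0.81 (0.71 to 0.91). Pde3b was the lowest above 20 CPM at -0.79 (-0.82 to -0.76), and Pde4d, named after its value was seen, was the gene past 2-fold at -1.25 (-1.40 to -1.10). Gnas, the stimulatory subunit used by Gpr65, was at -0.74 (-0.77 to -0.71), and Gnai2, an inhibitory subunit abundant in myeloid cells, was at 0.11 (0.09 to 0.13). Among cyclic AMP-responsive genes 6 of 8 had the minimum level, with a median of -0.20 (-0.81 over those of at least 20 CPM), 2 of them at least 2-fold lower. Nr4a1 was lowest at -1.52 (-1.56 to -1.48), Per1 stood at -1.18 (-1.26 to -1.10), and Dusp1 was highest above 20 CPM at 0.46 (0.44 to 0.47). Of the 6, 3 were above 0 and 3 below, and Fosl2, under 20 CPM, was the highest at 0.61 (0.41 to 0.81). Sik1, under the 5 CPM minimum with 59 and 339 UMIs, had a log2 ratio of 1.37 (0.97 to 1.80).

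Enzymes that supply or remodel fatty acids and lysolipids had a median of 0.15 over 8 of 11 genes, with 1 at least 2-fold higher and 0 lower. That gene was Alox5, the lipoxygenase that starts leukotriene synthesis, with levels of 34.9 and 141 CPM and a log2 ratio of 2.01 (1.92 to 2.10). Its partner Alox5ap was at 0.71 (0.68 to 0.74). Pla2g15, a lysosomal phospholipase, was the lowest of these 8 genes at -0.22 (-0.26 to -0.18). Acot7, under the 5 CPM minimum with 183 and 269 UMIs, had a log2 ratio of -0.59 (-0.87 to -0.32).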

How the data were processed

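For each of 2 libraries the authors deposited a matrix of raw UMI counts, whole numbers per the file headers. The kit was Singleron GEXSCOPE, per the labels' protocols. GRCm38 and bcl2fastq 2.19 are named in the submitters' processing notes. Aligner, counting program, annotation and cell calling were not given in the sources used here. The deposited matrices are named with the words wild type and depression in place of vehicle and corticosterone, and each was assigned by its sample record. The receptors, lists and rules were chosen with earlier results of these data known.

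Cells with at least 500 UMIs, 300 genes and at most 20% mitochondrial UMIs were kept, removing 55 vehicle and 230 corticosterone barcodes. Clustering (scanpy 1.11.5, leidenalg 0.10.2) used 2000 variable genes without the 4 receptors, 30 components, 15 neighbours and Leiden resolution 0.5. Clusters were called X-like from at least 3 of the class's markers, each in at least 10% of cells at 2 times or more the level elsewhere, or microglia-like where microglia markers held at least 0.5 times their overall level. A cluster stayed unnamed if another class led its 10 leading genes, or if its UMIs were under 33.3% of its library's median with no marker among those genes. These thresholds followed earlier work on the same data. Sub-clusters used 1500 variable genes centred within library, 20 components and resolution 0.4. Scrublet marked 0 cells in both libraries and so had failed; doublets were left in.

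UMIs were summed per class and library and scaled to CPM. Intervals are exact at the 95% level: Poisson for sums, conditional binomial for ratios, Clopper-Pearson for shares. UMI totals of microglia-like cells were 32221674 and 71490339, and where a count is 0 the floor is 3 counts. Named were the 4 receptors, genes of their ligands and family (Gpr4, Ch25h, Cyp7b1 and Hsd3b7), and the highest and lowest gene of each list above 20 CPM, of which some are not reported here; other list genes were singled out after their values were seen. The 3 genes most like each receptor came from all genes above 20 CPM with predicted genes left out. Ratios and thinning were tested on simulated data. Alternatives used edgeR 4.0.16 TMM factors, DESeq2 1.42.0 size factors, other cells, filters, resolutions and thinning depths.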

Additional observations from a re-analysis of the deposited data

Results flagged for a closer look

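The library difference of Gpr183 had opposite signs in microglia-like cells, with a log2 ratio of 0.43 (0.39 to 0.47), and in neutrophil-like cells, with -0.46 (-0.72 to -0.21), and both counting intervals excluded 0. With 1 library per group the difference between the classes was not tested. The microglia marker ratio in neutrophil-like cells moved with it, from 0.553 in vehicle to 0.357 in corticosterone, and its part in the Gpr183 level there was not tested. Against the product of that ratio and the microglia-like level, the Gpr183 remainder was 10.9 CPM (-3.67 to 26.8) for vehicle neutrophil-like cells. For corticosterone it was -9.21 CPM (-21.3 to 4.16), so both intervals included 0.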

How the results depend on the processing

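With 1 library per group, the report describes 2 libraries, and no alternative replaces replication. No paired analysis was possible because each group has 1 sample. Of 14 alternatives for the log2 ratio in microglia-like cells, Gpr65, Gpr84 and Gpr183 were above 0 in 14 each, and Gpr132 in 13. With all cells kept, Gpr65 was 1.53 and Gpr84 2.00. The median of all genes moved by 0.09 under edgeR TMM and 0.11 under DESeq2 size factors, where Gpr84 was 2.05 and 2.06 and Gpr183 0.52 and 0.53. With cells weighted equally Gpr183 was 0.47, and under the rule per cell 0.48. Added after the data were seen, leaving out the largest corticosterone cluster gave 0.33 for Gpr183, and leaving out the largest cluster of each library gave 1.47 for Gpr65, 1.31 for Gpr84, 0.32 for Gpr183 and -1.40 for Gpr132, on fewer cells. Genes at least 2-fold higher numbered 217, 117 with a mean of at least 20 CPM and 910 with no CPM filter, and genes at least 2-fold lower numbered 199, 85 and 2597. The ratio of shares of cells with a Gpr84 UMI, 2.84 at 1000 UMIs, was 3.46 at 500, 2.42 at 2000 and, added later, 2.10 without thinning, and that of Gpr183, 1.30, was 1.40 at 500. Gpr132 gave no ratio at 500 UMIs, since no vehicle cell kept a UMI. List medians moved for the oxysterol list (1.2e-05 above 20 CPM, 0.062 with DESeq2 size factors), cyclic AMP-responsive genes (-0.81 above 20 CPM), other lipid receptors (-0.36 above 20 CPM) and coupling genes (0.12 with DESeq2 size factors).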
